A study of Danio rerio with 8 samples.

Results

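Integrins are the cell surface receptors through which cells hold on to the extracellular matrix and to each other. Gene rows were taken as integrins when their symbol, case ignored, began with itga or itgb and a digit, or with itgae, itgal, itgam, itgav or itgax. The rule found 36 of the 32520 gene rows in the table. Of these, 34 name an integrin subunit, 22 of them alpha chains and 12 beta chains, and 2 name proteins that bind the tail of a beta chain (ITGB1BP1 and itgb3bp), which are given apart. The data are RNA sequencing counts from the injured cardiac ventricle of zebrafish. Fish homozygous for a cox7a1 mutation (cox7a1-/-) were compared with wildtype siblings, in 4 pools per genotype. Each pool held 5 ventricles taken 7 days after cryoinjury, in which part of the ventricle is killed by freezing, and both genotypes were injured. The labels give no strain, sex, age or kind of mutation. Where values of single pools are listed, they stand in the order of replicates 1 to 4 of each genotype, and p-values measure the spread between these pools.

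Each integrin is a pair of 1 alpha and 1 beta chain, and the alpha chain largely sets which ligand is bound. In mammals ITGA1, ITGA2, ITGA10 and ITGA11 bind collagens, ITGA3, ITGA6 and ITGA7 bind laminins of basement membranes, and ITGA5 and the ITGAV group bind fibronectin and other proteins at the short Arg-Gly-Asp motif. ITGB2 and ITGB7 and their alpha partners are carried by white blood cells, while ITGB1 joins many alpha chains and is shared by several ligand classes. In the injured zebrafish heart, fibronectin is laid down by the epicardium during regeneration. The classes below follow these mammalian ligands, and ITGA4 and ITGA9, which bind fibronectin and other matrix proteins at other sites, were placed with the fibronectin class.

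Total counts ran from 41556101 to 69057989 per pool. Cardiomyocyte markers were abundant in each pool, with a summed level of 41015 to 49338 CPM (read counts relative to library size, scaled between libraries) in wildtype and 41950 to 59802 CPM in mutant pools, and MYL7, a cardiac myosin light chain, averaged 11717 and 11141 CPM. The targeted gene cox7a1 held 209.7, 278, 285.9 and 210.6 CPM in wildtype pools and 59.52, 113.1, 88.46 and 193.9 CPM in mutant pools. No mutant pool reached the lowest wildtype value (exact permutation test, two-sided, p = 0.0286, the smallest that 4 pools against 4 allow), and the edgeR adjusted p over all genes was 0.0776. Mutant replicates 1, 3 and 4 had the steepest trends with gene length, replicate 4 in the opposite direction to the others. Per doubling of exon length, levels relative to the mean of all pools changed by 0.075 and 0.063 log2 units in mutant replicates 1 and 3. The change was -0.069 in mutant replicate 4 and -0.034 to 0.015 in the remaining pools. Tested integrin subunits had a median of 3607 exonic bases against 2467 in all tested genes, so ITGA5 and ITGA10 are also given with this trend removed. In that fit the other 6 subunits with an unadjusted p under 0.05 stayed on the same side of the threshold (adjusted p from 0.0516 for ITGA6 to 0.207 for itgae.1). Fold changes and p-values of single genes in the lists below are given with the trend left in. Of the list rows called below, those of LAMB1, FLNC, VCL and CSPG4 are longer than the median of all tested genes, and those of TGFB3 and ZYX are shorter.

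Between genotypes, 2 of the 32 tested subunits passed the test, ITGA5 higher and ITGA10 lower in mutants. That is 6.25% of the subunits, against 2.02% of all 17949 tested genes (1.14% higher and 0.88% lower), and the share in subunits rests on 2 rows. The test was edgeR's quasi-likelihood test with Benjamini-Hochberg adjustment over all tested genes, at an adjusted p of 0.05. An unadjusted p under 0.05 was found for 8 of the 32 subunits, or 25%, against 18% of all tested genes. The genotypes did not overlap in 7 of the 32, 5 with all mutant pools higher and 2 with all lower, against 11.7% of all tested genes (6.27% higher and 5.48% lower). The median log2 fold change, positive where mutants are higher, was 0.17 over the subunits and 0.00 over all genes.

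Levels of the subunits spanned several orders of magnitude, and the shared beta1 chain led them. Compared per kilobase of exon, the ITGB1 row ENSDARG00000104484 of chromosome 2 stood first in wildtype ventricles at 87.8 CPM per kilobase and the ITGB1 row ENSDARG00000071863 of chromosome 24 second at 35.2. The first of these has only 1563 exonic bases in the annotation, against 6015 in the second, so its rank rests on that deposited length. The laminin receptor chain ITGA3 (22.3), the fibronectin receptor chain ITGA5 (20.4) and the leukocyte chain itgb2 (20.2) followed, all in CPM per kilobase. Next came ITGAV (14.6) and ITGA1 (13.7), and these 7 were the subunits at 10 CPM per kilobase or above. In all, 21 of the 34 subunits reached 1 CPM per kilobase in wildtype, and 11 tested subunits lay below it, with counts of 0 to 173 per pool. The remaining rows, ITGB6 (0 to 37 counts per pool) and itga6l (0 to 10), were too low to be tested.

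**Figure D1:**
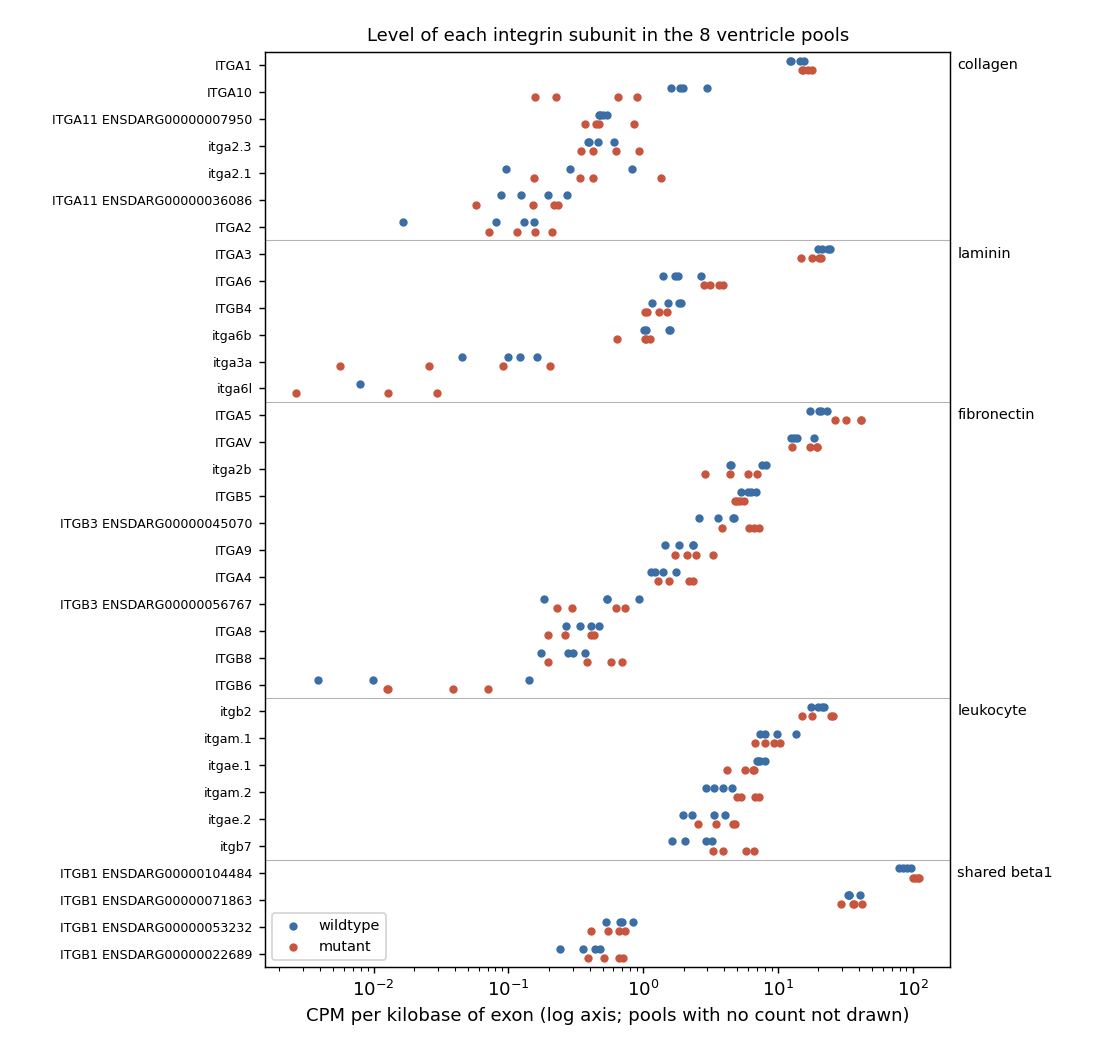
Level of each integrin subunit in CPM per kilobase of exon on a log axis, with 1 point per pool, wildtype in blue and mutant in red, grouped by ligand class, where pools with no count are not drawn. The points of ITGA10 and of ITGA5 separate by genotype, and the leading ITGB1 row is above all others in each pool.

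In the fibronectin class, ITGA5 rose in mutant ventricles. ITGA5 pairs with beta1 to form the classical fibronectin receptor. It held 116.6, 100.2, 133.3 and 121.3 CPM in wildtype pools and 240.4, 183.6, 239.7 and 152.8 CPM in mutant pools. Every mutant pool was above every wildtype pool, with replicates 1 and 3 highest and replicate 4 lowest among the mutants. The mean went from 117.8 ± 13.7 to 204.1 ± 43.4 CPM (SD, n = 4), a log2 fold change of 0.79 ± 0.163 (SE), or 1.73-fold (edgeR adjusted p = 0.0363). ITGA5 (ENSDARG00000006353) lies on chromosome 23 of GRCz11, 33447625 to 33558161, minus strand, with 5776 exonic bases. With the length trend removed the log2 fold change was 0.74 (adjusted p = 0.0228), and without mutant replicate 4 it was 0.91 (0.0161). The call was lost when any 1 of the other 7 pools was left out (adjusted p from 0.0515 without wildtype replicate 4 to 0.114 without wildtype replicate 2), and with libraries scaled by their totals alone (0.066), while the log2 fold change stayed between 0.69 and 0.91. In whole ventricles, more cells of a type and more RNA per cell cannot be told apart in this or the other results.

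ITGB3, a beta chain that pairs with ITGAV and, in thrombocytes, with itga2b, has 2 rows, of which the one on chromosome 12 (ENSDARG00000045070) is the more abundant. It held 14.38, 7.982, 11.07 and 14.16 CPM in wildtype pools and 22.03, 20.49, 18.76 and 11.87 CPM in mutant pools. Mutant replicates 1 to 3 were above all wildtype pools and replicate 4 was within their range. The log2 fold change was 0.62 ± 0.222 (SE), which did not pass (edgeR adjusted p = 0.175). The ITGB3 row of chromosome 3 (ENSDARG00000056767), at 1.387 and 1.194 CPM, had a value of -0.22 ± 0.501.

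The ITGAV chain, partner of several beta chains and an activator of latent TGF-beta, averaged 73.12 CPM in wildtype and 86.63 CPM in mutants with overlapping pools (log2 fold change 0.24 ± 0.169, SE). Its partner ITGB5 averaged 22.21 and 18.72 CPM (-0.25 ± 0.114, unadjusted p = 0.053). Among the alpha chains that also bind other matrix ligands, ITGA4 averaged 4.682 and 6.268 CPM (0.42 ± 0.219) and ITGA9 8.743 and 10.51 CPM (0.26 ± 0.217). None of these passed the test. The thrombocyte chain itga2b had overlapping pools, at 23.21 ± 7.48 and 19.04 ± 6.8 CPM (SD, n = 4), and ITGA8 and ITGB8 were below 2 CPM on average in both genotypes. Summed over the class, fibronectin alpha chains made up 37.1% to 43.8% of all alpha chain levels per kilobase in wildtype pools and 42.9% to 51.7% in mutant pools, so the ranges overlapped at mutant replicate 4. Most of this rise was that of ITGA5. The class sum averaged 44.92 CPM per kilobase in wildtype and 62.27 in mutants, and ITGA5 alone 20.4 and 35.3.

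In the collagen class, ITGA10 fell while its relatives did not pass the test. ITGA10 is a collagen-binding alpha chain known in mammals from cartilage. Its level was 16.39, 14.12, 17.25 and 25.82 CPM in wildtype pools and 1.383, 5.654, 7.806 and 1.954 CPM in mutant pools. All mutant pools were below all wildtype pools, and the mutants themselves split, with replicates 1 and 4 far below replicates 2 and 3. In counts these mutant values were 62, 279, 355 and 121 reads, and wildtype pools had 722 to 1304. The fold change was 0.228, on the log2 scale -2.14 ± 0.456 (SE) (edgeR adjusted p = 0.0403).

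ITGA10 (ENSDARG00000002507) lies on chromosome 16, 14276364 to 14353567, minus strand, with 8704 exonic bases. Of these, 714 are also exonic in POLR3C, an RNA polymerase III subunit gene on the opposite strand, and the authors' counting used strand. POLR3C itself averaged 3.677 and 3.372 CPM (log2 fold change -0.12 ± 0.186, SE). In a window of 200 kilobases on either side, chosen after the values were seen, none of the 7 tested neighbours of ITGA10 was called. The fold change of ITGA10 stayed negative when each pool was left out in turn (log2 -2.62 to -1.86). Its call was kept without mutant replicate 3 (adjusted p = 0.0444) and lost in the other 7 cases (adjusted p from 0.0568 without wildtype replicate 4 to 0.0999 without wildtype replicate 3). With the length trend removed it was -2.21 (0.0272), and with the trend removed and mutant replicate 4 left out -2.001 (0.0556).

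**Figure D2:**
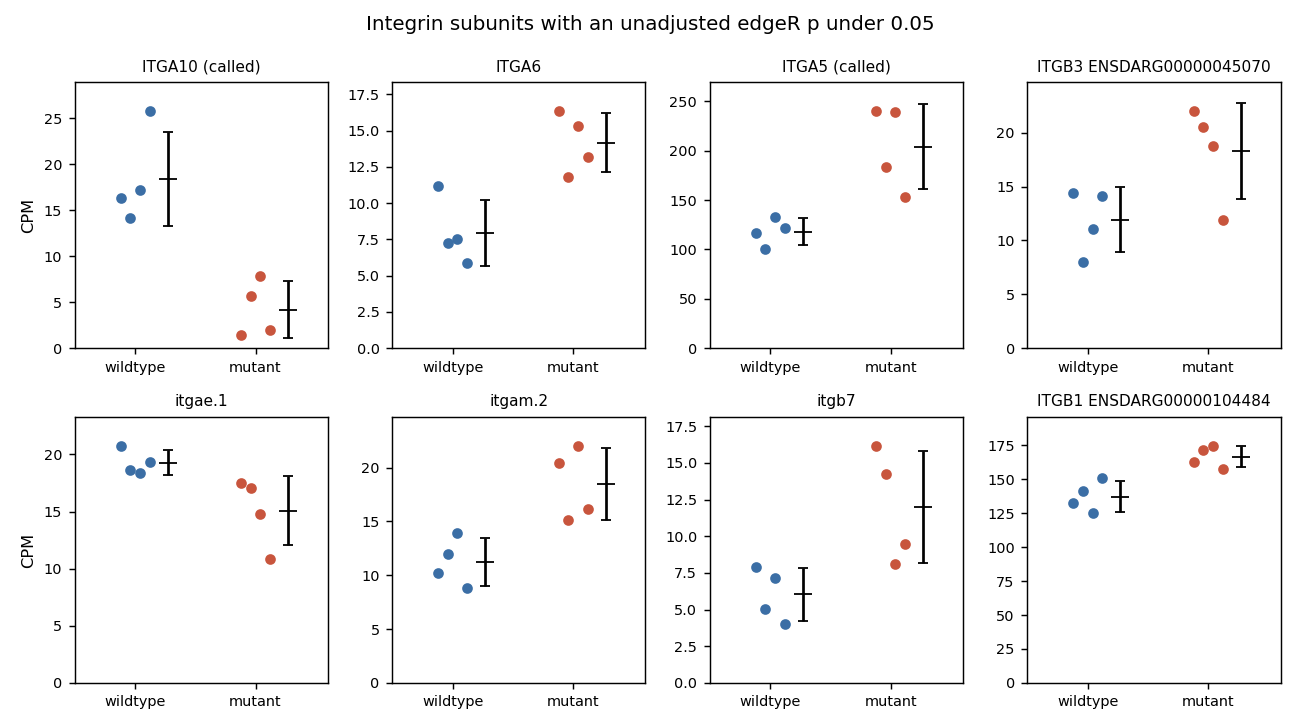
CPM in each pool for the 8 integrin subunits with an unadjusted edgeR p under 0.05, wildtype in blue and mutant in red, with the mean and SD in black beside each group of 4 pools. ITGA10 and ITGA5 are the 2 that passed the adjusted threshold, and in ITGB3 alone of the 8 does a mutant pool lie within the wildtype range.

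The other collagen receptor chains had different levels and no called difference. ITGA1, by far the most abundant of the class per kilobase and known in mammals from smooth muscle and mesenchymal cells, held 54.83, 46.29, 46.75 and 58.37 CPM in wildtype pools and 67.54, 56.81, 62.88 and 57.99 CPM in mutant pools. The 2 groups overlapped narrowly, and the log2 fold change was 0.25 ± 0.116 (SE; unadjusted p = 0.0542, adjusted p = 0.289). The ITGA11 rows, named for a collagen receptor of fibroblasts in mammals, averaged 2.239 and 2.403 CPM on chromosome 25 (ENSDARG00000007950) and 0.81 and 0.7881 CPM on chromosome 7 (ENSDARG00000036086). The 3 neighbouring rows of chromosome 10 with ITGA2 names (itga2.1, itga2.3 and ITGA2) were below 1 CPM on average in both genotypes. Collagen alpha chains made up 15.5% ± 0.949 of alpha chain levels per kilobase in wildtype and 14.7% ± 0.739 in mutants (SD, n = 4). Their summed level averaged 17.38 CPM per kilobase in wildtype and 18.8 in mutants. Within it ITGA1 went from 13.73 to 16.33 and ITGA10 from 2.113 to 0.4824.

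Laminin receptor chains pointed in different directions. ITGA6, whose product joins beta1 or beta4 on laminin, held 11.21, 7.238, 7.509 and 5.841 CPM in wildtype pools and 16.37, 11.84, 15.3 and 13.19 CPM in mutant pools. No mutant pool reached down to the wildtype range. It was 1.78-fold higher on average (log2 0.83 ± 0.197, SE), and the edgeR adjusted p of 0.0554 was just above the threshold. ITGA6 passed with DESeq2 (0.00543), which called more of all tested genes than edgeR did, and with limma-voom (0.0484). With 1 pool left out, edgeR called it in 1 of 8 cases (adjusted p from 0.0281 to 0.16). ITGA6 (ENSDARG00000042282) shares 1274 of its 4173 exonic bases with ENSDARG00000099348 on the same strand, and reads in shared bases were not counted to either gene.

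The paralog itga6b leaned the other way, at 6.204 CPM in wildtype and 4.575 CPM in mutants (-0.44 ± 0.222), without passing the test. Within each pool, ITGA6 made up 63.4%, 63%, 53.1% and 57.1% of the summed level of ITGA6 and itga6b per kilobase in wildtype pools, and 77.7%, 73.4%, 77.7% and 83.1% in mutant pools. The mutant shares were thus all above the wildtype shares. This share was computed after the values of both rows were seen, and it was not tested.

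The most abundant laminin chain, ITGA3, held 75.42, 82.77, 69.95 and 86.17 CPM in wildtype pools and 52.78, 70.99, 62.75 and 73.57 CPM in mutant pools. The groups overlapped, with mutant replicates 1 and 3 below all wildtype pools, and the log2 fold change of -0.27 ± 0.13 (SE) did not pass (adjusted p = 0.297). ITGB4, the laminin receptor beta chain of epithelia, averaged 14.9 and 11.39 CPM (-0.39 ± 0.182), and itga3a was below 1 CPM. In this class 4 of the 5 tested rows had negative values, with a median of -0.39.

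Leukocyte integrins, which white blood cells use to stick to vessel walls and to take up complement-coated particles, did not pass the test. The 2 members of each pair of alpha chain genes had values of opposite sign. Of these, itgam.1 and itgae.2 had overlapping pools, and itgam.1 turned sign with 1 pool left out. The beta chain itgb2 held 74.02, 61.84, 69.4 and 76.43 CPM in wildtype pools and 86.59, 90.08, 62.09 and 52.67 CPM in mutant pools. Mutant replicates 1 and 2 were above all wildtype pools and replicate 4 was below them, and the log2 fold change was 0.05 ± 0.17 (SE). It was the most abundant row of the class per kilobase.

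Of the neighbouring genes itgam.1 and itgam.2, named for the alpha chain of the complement receptor in macrophages and neutrophils, itgam.2 held 10.23, 11.93, 13.92 and 8.851 CPM in wildtype pools and 20.47, 15.18, 22.05 and 16.11 CPM in mutant pools. All mutant pools were above all wildtype pools, with a log2 fold change of 0.72 ± 0.173 (SE; adjusted p = 0.0589). It passed with DESeq2 (0.00888) and with no filter on low counts (0.0445). With 1 pool left out, edgeR called it in 0 of 8 cases (adjusted p from 0.0576 to 0.176). The more abundant itgam.1 averaged 49.81 and 44.11 CPM with overlapping pools (-0.18 ± 0.197).

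The beta chain itgb7, known in mammals from lymphocytes that home to the gut, held 7.93, 5.028, 7.171 and 4.02 CPM in wildtype pools and 16.19, 14.25, 8.091 and 9.493 CPM in mutant pools. Mutant pools were all higher, replicate 3 by a small margin. The log2 fold change of 0.99 ± 0.263 (SE) was the largest positive value among the subunits (adjusted p = 0.0777, and 0.00917 with DESeq2). With 1 pool left out, edgeR called itgb7 in 0 of 8 cases (adjusted p from 0.0704 to 0.19). ITGAE, which is a partner of ITGB7 in mammals but not the only one, has 2 rows here. In mammals ITGAE and ITGB7 together form the receptor for E-cadherin on lymphocytes in epithelia. The row itgae.1 held 20.78, 18.66, 18.37 and 19.33 CPM in wildtype pools and 17.48, 17.06, 14.82 and 10.88 CPM in mutant pools, all mutants being lower (-0.36 ± 0.151, unadjusted p = 0.0362, adjusted p = 0.239).

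The other, itgae.2, averaged 8.964 and 11.84 CPM with overlapping pools (0.40 ± 0.254). Both itgae rows lie on chromosome 15, 3189 and 3213 kilobases from cox7a1, the mutated gene, so linked sequence differences and the mutation cannot be told apart there. Summed levels of 28 rows of leukocyte markers were 990.1 to 1334 CPM in wildtype and 840.8 to 1201 CPM in mutant pools. None of the 24 tested markers was called by edgeR, and their median log2 fold change was -0.19. Several of the 24 are MFAP4 rows, so this family weighs more in the median than a single gene. Among these, ENSDARG00000089667 (0.164 and 0.319 CPM) and ENSDARG00000038681 (0.399 and 0.253 CPM) had low averages in wildtype and mutants. An unadjusted p under 0.05 was found for 4 of the 24, or 16.7% against 18% of all tested genes. Of these 4, the MPEG1 row ENSDARG00000043093 had a positive log2 fold change (0.78 ± 0.218, SE), and cd74b (-0.36 ± 0.141), the MFAP4 row ENSDARG00000088745 (-0.87 ± 0.358) and csf1rb (-0.57 ± 0.238, without overlap) had negative ones. The second abundant MPEG1 row (ENSDARG00000055290) had 0.03 ± 0.221, the macrophage receptor csf1ra 0.06 ± 0.18 and the pan-leukocyte gene ptprc -0.04 ± 0.186, and 1 MFAP4 row was at 0 in all pools. The part of cell numbers in the leukocyte integrins was not tested.

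The shared beta1 chain has 4 rows, 3 of them side by side on chromosome 2. The short row ENSDARG00000104484 held 132.3, 141.1, 125 and 150.9 CPM in wildtype pools and 162.4, 171.6, 174.8 and 157.9 CPM in mutant pools. All mutant pools were higher, by a log2 fold change of 0.28 ± 0.109 (SE; unadjusted p = 0.0254, adjusted p = 0.207). The row of chromosome 24 averaged 211.6 and 217.1 CPM (0.04 ± 0.134), and the other two rows of chromosome 2 were below 2 CPM on average. Reads that map to several places were not counted, so levels of similar copies such as these are uncertain. The binding proteins that share the letters of the rule, ITGB1BP1 (12.1 and 13.62 CPM) and itgb3bp (0.2994 and 0.3843 CPM), had log2 fold changes of 0.17 ± 0.161 and 0.38 ± 0.667.

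**Figure D3:**
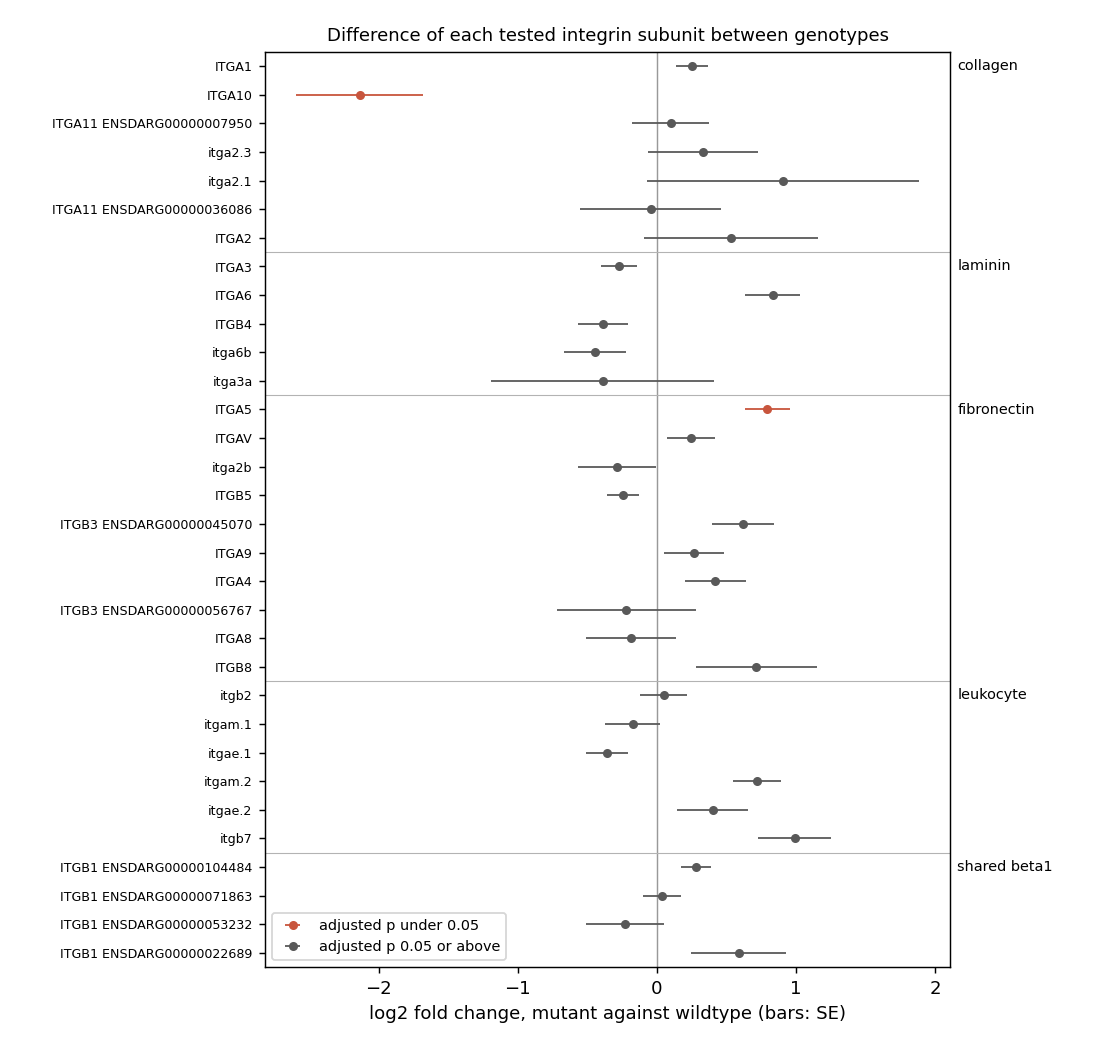
Log2 fold change of each of the 32 tested subunits, mutant against wildtype, with bars for the SE, grouped by ligand class. ITGA10 at -2.14 and ITGA5 at 0.79 are the called rows, in red, and the remaining values lie between -0.44 and 0.99.

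In the 4 lists of ligand and counter-receptor genes, LAMB1 and TGFB3 were the genes called, both higher. The called share per list was 0% to 5.56%, at most 1 gene, against 2.02% of all tested genes. The laminin beta chain LAMB1 (ENSDARG00000101209) held 133.6, 139.2, 106.9 and 132.1 CPM in wildtype pools and 251.1, 179.2, 177.8 and 193.1 CPM in mutant pools. The groups did not overlap, and LAMB1 rose 1.57-fold (log2 0.65 ± 0.144, SE; edgeR adjusted p = 0.0462), the 1 call among 18 tested laminin and basement membrane genes, a call lost with any 1 pool left out (adjusted p up to 0.138) and with library totals alone (0.114). The second LAMB1 row (ENSDARG00000045524) had -0.27 ± 0.12. The genotypes did not overlap in 5 of the 18, or 27.8% against 11.7% of all tested genes. Values were positive in 13 of the 18 and the median was 0.26, and 7 had an unadjusted p under 0.05, or 38.9% against 18% of all tested genes. Further low p-values were those of lama2 (0.77 ± 0.203), nid2b (-1.77 ± 0.482, at 0.6427 and 0.1873 CPM) and LAMA5 (0.34 ± 0.129).

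In the fibronectin and Arg-Gly-Asp matrix list, TGFB3 (ENSDARG00000019367) was the 1 call among 36 tested genes, 2.78% against 2.02% of all tested genes. The latent form of this growth factor binds ITGAV integrins in mammals. It held 88.08, 88.41, 93.9 and 108.5 CPM in wildtype pools and 136.9, 133.3, 157.6 and 169.8 CPM in mutant pools, higher in every mutant pool (1.58-fold, edgeR adjusted p = 0.0263, a call lost in 5 of 8 cases with a pool omitted). The fibronectin genes themselves overlapped between genotypes, at 1432 ± 411.9 and 1520 ± 139.6 CPM for the FN1 row ENSDARG00000006526 and 506.1 ± 147.1 and 642.4 ± 183.3 CPM for ENSDARG00000019815 (SD, n = 4). LTBP1, which tethers latent TGF-beta to the matrix, had 0.50 ± 0.134 (SE; adjusted p = 0.0781), SVEP1, a matrix ligand of ITGA9 in mammals, 0.38 ± 0.131 and fbln5 0.77 ± 0.28. Positive values made up 26 of the 36, and the median was 0.29. An unadjusted p under 0.05 was found for 8 of the 36, or 22.2% against 18% of all tested genes. The genotypes did not overlap in 8.33% of the list, against 11.7% of all tested genes.

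Collagen genes had no call. None of 36 tested collagen genes was called by edgeR or DESeq2, and the median log2 fold change was 0.08. An unadjusted edgeR p under 0.05 was found for 3 of them, or 8.33% against 18% of all tested genes. The genotypes did not overlap in 2.78% of the collagen genes, against 11.7% of all tested genes. The fibrillar collagen row col1a1a averaged 1025 and 1092 CPM, and the lowest p-values were those of col27a1b (0.72 ± 0.263, SE), col15a1b (0.84 ± 0.31), 1 COL2A1 row (0.57 ± 0.225) and col18a1b (-0.35 ± 0.17). Among counter-receptors of leukocyte integrins, 0 of 10 tested genes were called by edgeR, and DESeq2 called 1. An unadjusted p under 0.05 was found for 3 of the 10, or 30% against 18% of all tested genes. The genotypes did not overlap in 2 of the 10, or 20% against 11.7% of all tested genes. The vessel wall ligand vcam1b averaged 128.9 ± 14.9 and 183.9 ± 36.4 CPM (SD, n = 4; log2 0.51 ± 0.152, SE, adjusted p = 0.11) and icam3 59.67 ± 1.7 and 75 ± 8.35 CPM (0.33 ± 0.111), both without overlap. The junction gene jam2b had -0.60 ± 0.212 and the E-cadherin gene cdh1 -0.83 ± 0.39, and the median of the 10 was -0.20.

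The list of the integrin adhesion complex had 3 called genes, all higher in mutants, among 56 tested (5.36% against 2.02% of all genes). It holds proteins that tie integrin tails to actin, and also signalling proteins and regulators, ITGB1BP1 and itgb3bp among them. FLNC (ENSDARG00000018820), a muscle filamin that crosslinks actin, held 286.4, 286.1, 225.3 and 282 CPM in wildtype pools and 516, 459, 641.9 and 441.9 CPM in mutant pools. It rose 1.91-fold (log2 0.93 ± 0.149, SE; edgeR adjusted p = 0.0145), and the groups were far apart. Its call was lost in 1 of 8 cases of a left-out pool (0.0571, without wildtype replicate 3). The more abundant FLNC row ENSDARG00000018566 averaged 1364 and 1716 CPM with overlapping pools (log2 0.33 ± 0.192, SE; edgeR adjusted p = 0.399).

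VCL (ENSDARG00000044968), vinculin, which reinforces the link from talin to actin, held 39.85, 37.25, 30.48 and 34.45 CPM in wildtype pools and 49.99, 61.33, 64.51 and 59.27 CPM in mutant pools (1.66-fold, adjusted p = 0.0179, lost in 3 cases). ZYX, zyxin, a marker of adhesions under tension, held 63.54, 71.48, 65.35 and 99.3 CPM in wildtype pools and 133, 116.8, 149.7 and 116.1 CPM in mutant pools (1.72-fold, adjusted p = 0.0348, lost in 6 cases and, at 0.0582, with library totals alone). All mutant pools were above all wildtype pools in both. The more abundant VCL row ENSDARG00000098695 averaged 99.81 and 127.8 CPM, also without overlap, and was not called (log2 0.36 ± 0.127, SE; edgeR adjusted p = 0.172). The genotypes did not overlap in 10 of the 56 genes of the list, or 17.9% against 11.7% of all tested genes. Of the 56 genes, 20 had an unadjusted p under 0.05, 17 of them higher in mutants, which is 35.7% against 18% of all tested genes.

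BCAR1, a docking protein of adhesion signalling, was among these 20 (0.43 ± 0.109, SE, edgeR adjusted p = 0.0686). So were FERMT2, the kindlin that switches integrins on in muscle (0.45 ± 0.14), and both PXN rows for paxillin. The PXN row ENSDARG00000060766 had 0.51 ± 0.145 and ENSDARG00000088590 had 0.27 ± 0.104. The main talin gene TLN1 averaged 339.3 and 384.7 CPM (0.18 ± 0.12) and integrin-linked kinase ILK 99.58 and 102.1 CPM (0.04 ± 0.11). PARVB, which binds ILK, had -0.29 ± 0.128. The median of the list was 0.17.

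**Figure D4:**
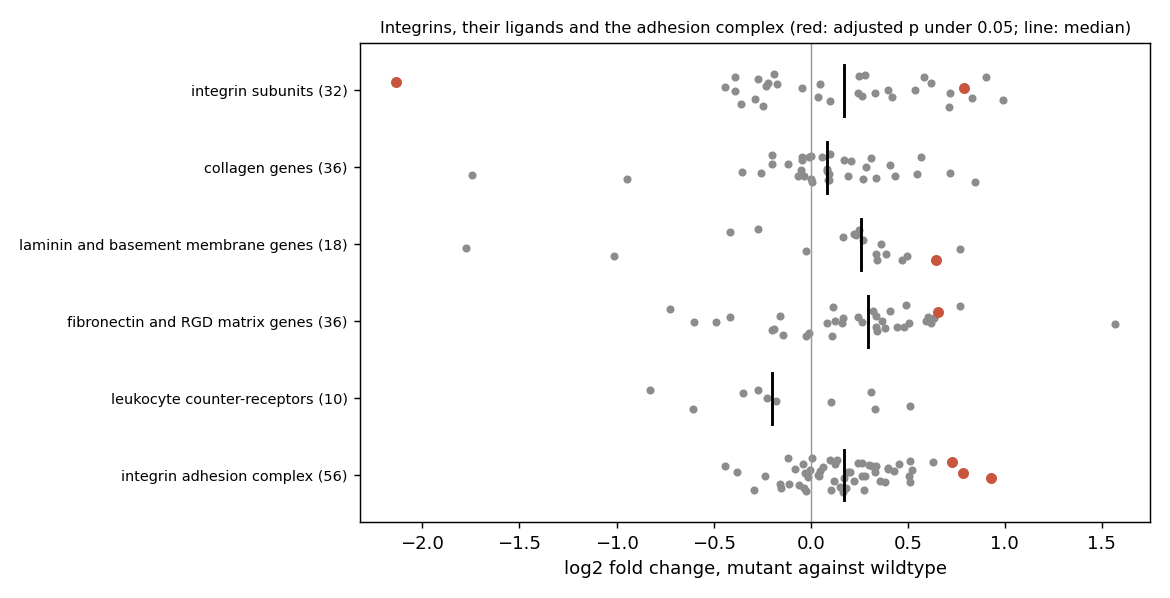
Log2 fold changes of the tested integrin subunits, of the 4 lists of ligand or counter-receptor genes and of the adhesion complex, with 1 point per gene, called genes in red and the median of each list as a line. Each called gene other than ITGA10 lies to the right of 0.

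Markers of other cells in the ventricle were compared with the same fit. In the lists below, shares stand against 2.02% of all tested genes called and 18% with an unadjusted p under 0.05. Cartilage markers, listed because ITGA10 is known from cartilage, had summed levels of 114.4 to 165.5 CPM in wildtype and 111.2 to 132.1 CPM in mutant pools. A large part of these sums was the single row hapln1a, at 68.53 and 48.58 CPM on average (log2 fold change -0.50 ± 0.243, SE). Of the 18 cartilage rows 8 could be tested and none was called by edgeR (2, or 25%, had an unadjusted p under 0.05). In all pools col9a1b was at 0, and MATN1 averaged 0.2676 and 0.0964 CPM. A HAPLN1 row (ENSDARG00000102395) was lower in each mutant pool, at 3.345 ± 0.22 and 1.689 ± 0.987 CPM (SD, n = 4; adjusted p = 0.152). The other of these 2, the COL2A1 row ENSDARG00000011407, had a positive value (log2 0.57 ± 0.225, SE) with averages of 9.284 and 13.77 CPM and overlapping pools. Negative values were found in 6 of the 8 tested cartilage markers, and their median was -0.16. Epicardium and fibroblast markers summed to 1794 to 3173 CPM in wildtype and 2234 to 3413 CPM in mutants. Of these, 0 of 11 were called by edgeR and 1 (9.09%) had an unadjusted p under 0.05, ALDH1A2 (0.45 ± 0.167). Their median was 0.09, and 4 of the 11 had negative values, TCF21 (-0.44 ± 0.341) among them. Thrombocyte markers summed to 255.9 to 320.1 and 271.8 to 453 CPM, with a median log2 fold change of 0.10. Most of each sum came from the THBS1 rows, which are also in the fibronectin and Arg-Gly-Asp matrix list. They averaged 77.06 and 104.7 CPM (ENSDARG00000103775) and 136.8 and 162 CPM (ENSDARG00000010785). Negative values were found in 3 of the 9 thrombocyte markers, GP1BB (-0.46 ± 0.222, SE) among them. Of the thrombocyte markers 0 of 9 were called and 3 (33.3%) had an unadjusted p under 0.05. These 3 were the THBS1 row ENSDARG00000103775 (0.44 ± 0.161, SE), f13a1b (0.40 ± 0.163) and gp9 (-0.56 ± 0.257).

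Endothelial markers had 0 of 9 called and 1 (11.1%) at an unadjusted p under 0.05, KDR (0.39 ± 0.135, SE). Their median was -0.0022, with 5 of the 9 negative, and sums were 1248 to 1661 and 1277 to 1579 CPM. Of the smooth muscle and pericyte markers, CSPG4, a proteoglycan of pericytes, rose from 27 to 49.1 CPM (1.82-fold, edgeR adjusted p = 0.0238). It was the 1 call among 8 (12.5%), lost in 5 of 8 cases with a pool omitted and, at 0.065, with library totals alone. A TAGLN row (ENSDARG00000033466) had 0.29 ± 0.123 and was the other of 2 (25%) at an unadjusted p under 0.05. The 2 negative values were those of the TAGLN row ENSDARG00000045408 (-0.45 ± 0.211) and PDGFRB (-0.01 ± 0.145). The median was 0.16, and sums were 515.6 to 688.4 and 569.3 to 670.9 CPM. Cardiomyocyte markers had 0 of 13 called by edgeR and 3 (23.1%) at an unadjusted p under 0.05. These were the MYH6 row ENSDARG00000079564 (0.58 ± 0.137, edgeR adjusted p = 0.0566), nppb (0.67 ± 0.242) and actc1a (0.42 ± 0.154). Negative values, down to -0.47, were found in 6 of the 13, and the median was 0.16. Red cell markers had 0 of 4 called and 2 (50%) at an unadjusted p under 0.05, hbaa2 (2.23 ± 0.666) and an SLC4A1 row (0.96 ± 0.36). Their median was 0.76, with sums of 545.8 to 931.9 CPM in wildtype and 620.8 to 1715 CPM in mutants. The part of these cell types in the integrin values was not tested.

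Within genotypes, the pool to pool course of ITGA5 was most like that of NRARP (Pearson r = 0.981), CSNK1G2 (0.976), PARVA (ENSDARG00000043710, 0.968), si:dkey-277i15.2 (0.967) and GRB10 (0.966), by deviations from the genotype means over the 8 pools. These are the closest of all tested genes and are a description over few pools that share library depth and composition. None of the 5 was called between genotypes, the PARVA row having a log2 fold change of 0.04 ± 0.161 (SE) and CSNK1G2 the largest at 0.36. The 10 tested genes within 200 kilobases of ITGA5 had log2 fold changes from -0.32 to 0.24, and none was called.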

How the data were processed

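Each library held RNA pooled from 5 ventricles. Per the labels' protocols, a directional kit was used. The authors ran featureCounts 2.0.3 on exons, summed by gene and with strand setting 2, against the Ensembl 109 annotation of GRCz11, per the file headers. The command sets no option for reads that map to several places or to overlapping genes, so such reads were left uncounted. The submitters' processing notes also name fastp and STAR, without versions. Each deposited value is a raw count of reads in a gene, beside its exon length. Symbols came from a table that names 29201 of the 32520 rows.

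Genes were filtered with filterByExpr (minimum count 10), which left 17949, and scaled with TMM factors. CPM uses these factors, and log2 levels a prior count of 2. Mutant and wildtype pools were compared in edgeR 4.0.16 under R 4.3.3, in a model without further covariates. The SE is the log2 fold change divided by the square root of F. DESeq2 1.42.0 and limma 3.58.1 (voom) were alternatives. The length trend was a lowess fit (span 0.3) entered as an offset. The fits were tested on simulated data.

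Values in every pool are given for subunits that passed or had an unadjusted p under 0.05 and for the leading row of each class, and from each list the calls and up to 4 genes of lowest p are named, in marker lists those with an unadjusted p under 0.05. Further list genes (such as FN1, col1a1a, TLN1, ILK, FERMT2, PXN, PARVB, ptprc, csf1ra and MATN1) and the shares within paralog pairs were chosen after their values were seen. The 5 genes most like ITGA5, the integrin with the smallest p, were ranked over all tested genes. Members, lists and rules were chosen with earlier results of these data known. Fixed lists were matched by symbol, with a paralog suffix dropped where none matched.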

Additional observations from a re-analysis of the deposited data

Results flagged for a closer look

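Among 68 groups of 4 pools (34 tested rows in 2 genotypes), 2 had 1 pool far from the other three, where chance gives about 1 in 20. The laminin receptor chain itga6b stood at 3.051 CPM in mutant replicate 4, against 4.884 to 5.352 CPM in the other mutant pools. The ITGB1 row of chromosome 24 (ENSDARG00000071863) stood at 243.8 CPM in wildtype replicate 4, against 198.8 to 202.3 CPM in the other wildtype pools. Mutant replicate 4 is also the deepest library, and the part of depth or gene length in its itga6b value was not tested.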

How the results depend on the processing

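With 4 pools per genotype, counts of calls moved with most settings, and the causes were not tested. Over all tested genes, 205 calls higher and 158 lower became 60 and 97 with library totals alone, 569 and 434 with DESeq2, 126 and 84 with the replicate block and 502 and 390 at an adjusted p of 0.1. They became 29 to 273 and 37 to 200 with 1 pool left out, lowest without mutant replicate 3 (higher) and without wildtype replicate 3 (lower). Of the integrin subunits, 1 higher became 0 with library totals alone, 2 with limma-voom, 2 with the block, 3 with no filter, 4 with DESeq2 and 4 at 0.1, and 0 to 1 with 1 pool left out. The 1 lower became 0 to 1 with 1 pool left out, and 0 with the length trend removed and mutant replicate 4 left out, a setting added after seeing the data. The 1 laminin gene higher became 0 with totals alone, the block and that added setting, 2 with DESeq2 and at 0.1, and 0 to 1 with 1 pool left out, while 0 lower became 1 with DESeq2 and at 0.1. The 1 fibronectin list gene became 2 with DESeq2 and at 0.1 and 0 to 1 with 1 pool left out. Counter-receptors had 1 higher with DESeq2 and in the added setting. The 3 adhesion complex genes became 7 with DESeq2, 6 at 0.1 and 0 to 4 with 1 pool left out. The 1 marker higher became 0 with totals alone and the block, 3 with DESeq2 and at 0.1, 2 with the length trend removed and in the added setting, and 0 to 2 with 1 pool left out, while 0 markers lower became 0 to 1. Collagens had 0 in each setting run.

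The replicate numbers did not pair the pools throughout. Same-numbered pools correlated at 0.25, -0.071, 0.036 and -0.066 in their deviations from the genotype means, and differently numbered ones at -0.20 to 0.14. The value of replicate 1 was thus the highest of all. Among single integrins the replicate block changed 1 call, ITGA6 (0.86, adjusted p = 0.0432). The difference in cox7a1 (mean log2 CPM -1.23) ran from -1.53 to -0.97 with 1 pool left out, where 3 pools against 4 cannot pass the exact test.

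Signs turned in 7 rows that were not called, with these log2 ranges when 1 pool was left out. They were -0.27 to 0.25 for ITGA11 of chromosome 7 (0.18 in the added setting), -0.52 to 0.16 for ITGB3 of chromosome 3 (0.0059 in the added setting) and -0.32 to 0.76 for itgb3bp (-0.18 in the added setting). The others were -0.068 to 0.18 for itgb2, -0.29 to 0.019 for itgam.1, -0.050 to 0.12 for ITGB1 of chromosome 24 (-0.0059 with the length trend removed) and -0.23 to 0.25 for ITGA11 of chromosome 25 (-0.012 with limma-voom). The scaling alternatives left the median log2 fold change of all genes between -0.032 (library totals alone) and 0.0030 (TMM). Depth limits the 11 tested subunits under 1 CPM per kilobase, which had at most 173 counts in a pool.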
